A study of Mus musculus with 4 samples.

Results

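The 60 spots richest in transcripts of oxytocin (Oxt) and vasopressin (Avp) were described in 1 coronal brain section, HF replicate 2. They were 60 of 3343 spots that passed the filter in this section (1.79%) and of 13452 in the series. Each kept spot, with at least 500 unique molecular identifiers (UMIs) and 250 genes, was scored by the mean over Oxt and Avp of the natural log of 1 + UMIs per 10000 UMIs of the spot, and the 60 highest were taken as members. The members were thus chosen by their levels of Oxt and Avp, which are given as a description, with no test.

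The series holds 4 Visium-FFPE sections of male wild-type offspring of C57BL/6J dams at postnatal day 21, 2 per diet. Dams of 8 weeks received 2 mg/kg folic acid (MF) or 20 mg/kg (HF) from 2 weeks before mating and on through pregnancy and lactation. Each Visium spot reads pairs of probes on the RNA of several neighbouring cells, so in a spot fewer cells of a type and less RNA per cell cannot be told apart. All comparisons below are between spots of 1 section, which are not replicates: each fold is a ratio of summed UMIs per 10000, and each interval is an exact 95% interval that covers counting error only.

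Oxytocin and vasopressin are short peptide hormones made by neurosecretory neurons of the paraventricular and supraoptic nuclei of the hypothalamus. Large (magnocellular) neurons, most of which make 1 or the other hormone, send axons to the posterior pituitary and release it into the blood, where oxytocin acts on milk ejection and labour and vasopressin on water balance. The paraventricular nucleus lies against the ependyma of the third ventricle. It also holds smaller neurons that make releasing hormones such as Crh and Trh.

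Oxt (ENSMUSG00000027301) lies on chromosome 2 of GRCm38 from 130576173 to 130577054 on the plus strand, and Avp (ENSMUSG00000037727) from 130580620 to 130582554 on the minus strand. The genes stand tail to tail, 3565 bases apart. The 250 bases before each start site are shown from RefSeq (GRCm38.p6). They are chr2:130575919-130576168 on the plus strand for Oxt and chr2:130582589-130582838 on the minus strand for Avp. Capitals mark matches, on either strand, to TGACC (the core of a hormone response element), CACGTG (the E-box bound by clock factors), ACGTG (which lies within CACGTG) and ATAAA (letters of a TATA box).
Oxt: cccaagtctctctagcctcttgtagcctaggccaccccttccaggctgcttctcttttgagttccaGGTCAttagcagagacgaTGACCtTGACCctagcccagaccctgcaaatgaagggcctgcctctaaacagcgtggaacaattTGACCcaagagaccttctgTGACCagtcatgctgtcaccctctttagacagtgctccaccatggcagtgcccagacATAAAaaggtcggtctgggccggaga
Avp: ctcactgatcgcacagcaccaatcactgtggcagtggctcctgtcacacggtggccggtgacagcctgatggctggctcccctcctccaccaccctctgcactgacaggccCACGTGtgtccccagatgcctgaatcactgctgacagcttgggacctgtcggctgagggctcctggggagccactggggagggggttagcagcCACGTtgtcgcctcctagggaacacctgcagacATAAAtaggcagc
TGACC stood at positions -166, -160, -102 and -83 before the Oxt start site, counted from -1 as the last base shown, with 1 more match on the opposite strand at -184, and it had no match in the Avp window. CACGTG stood at -139 in the Avp window and had no match in that of Oxt. Of 32851 RefSeq promoters of this length, 35.2% held TGACC, 6.02% CACGTG, 16.6% ACGTG and 37.3% ATAAA, so a match is a description and not a site of binding.

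Members held 17651 of the 27105 Oxt UMIs of the kept spots (65.1%) and 11894 of the 19924 Avp UMIs (59.7%), while they made up 2.55% of all UMIs. Single members ranged from 21 to 1541 Oxt UMIs, with a median of 118. For Avp the range was 9 to 1170 UMIs, with a median of 82.5. Both genes together gave between 0.616% and 7.03% of all UMIs of a member, with a median of 1.50%, against a median of 0.0198% in the other 3283 spots. Per 10000 UMIs, Oxt ranged from 16.8 to 650.0 over the members (median 75.5) and Avp from 10.8 to 575.8 (median 46.9). The highest level of Oxt outside the members was 106.9 and that of Avp 137.3, so single other spots exceeded the member median in 1 hormone.

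At the edge of the rule there was no gap. The spots at ranks 58, 59 and 60 had scores of 3.45, 3.45 and 3.43, and those at ranks 61, 62 and 63 had 3.43, 3.42 and 3.38. The last member held 72 Oxt and 43 Avp UMIs and the first spot outside held 40 and 66. The number 60 is thus a limit set by the rule and not a border in the tissue.

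The score is a mean of logs and favours spots with both hormones. Of the 60 spots with the highest Oxt level, 54 were members, and of the 60 with the highest Avp level, 49. Among the spots left out were some with nearly 1 hormone alone. A spot at array row 69 and column 103 had 158 Avp UMIs and 0 of Oxt, one at row 63 and column 99 had 140 Avp and 3 Oxt UMIs, and one at row 67 and column 107 had 140 Oxt and 3 Avp UMIs. All 3 of these spots lay 6 spot spacings from the nearest member.

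No comparison of diets was made, and the same score found few such spots elsewhere. The highest score of any spot was 5.85 in the section described, and 2.19, 2.58 and 3.54 in the sections named next, in that order. Whole-section sums were 63 Oxt and 256 Avp UMIs in MF replicate 1, 174 and 112 in MF replicate 2, and 42 and 396 in HF replicate 1, which shares its diet with the section described. Their spots at rank 60 scored 0.225, 0.300 and 0.391, against 3.43 here. At least 5 UMIs of both genes were found in 330 spots of HF replicate 2 and in 1, 2 and 1 spots of the other sections. The deposited Moran's I, a score of how far neighbouring spots resemble each other, was 0.673 for Oxt and 0.650 for Avp in this section, and from 0.0109 to 0.182 for both genes in the other 3. Per 10000 UMIs of the kept spots, Sim1 was at 0.0640 in this section and from 0.00888 to 0.0140 in the others, and Otp at 0.220 and from 0.109 to 0.157. With the field in 1 section alone, the section, its animal and its diet cannot be told apart.

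Of the members, 54 formed 1 connected field at array rows 56 to 64 and columns 107 to 126, near the edge of the tissue, where 40 spots richest in the dentate gyrus gene Prox1 had a median row of 30. A second field held 3 spots at rows 68 to 70, and the other 3 members stood alone. Spots rich in ependyma genes (Foxj1, Ccdc153, Tmem212, Rarres2, Enkur and Dynlrb2) ran through the large field as a line, mostly 1 spot wide, and on to the small one. All 6 genes were at least 2-fold higher in the members than in the other spots, as were 315 of all 8030 genes compared (3.92%). Their summed level ranged from 0 to 54.1 per 10000 in the members (median 2.05), from 0 to 42.6 in the other spots (median 0) and from 0 to 42.6 in the surround (median 1.19), here the 153 other spots that lay 1 to 3 spacings from a member.

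**Figure D1:**
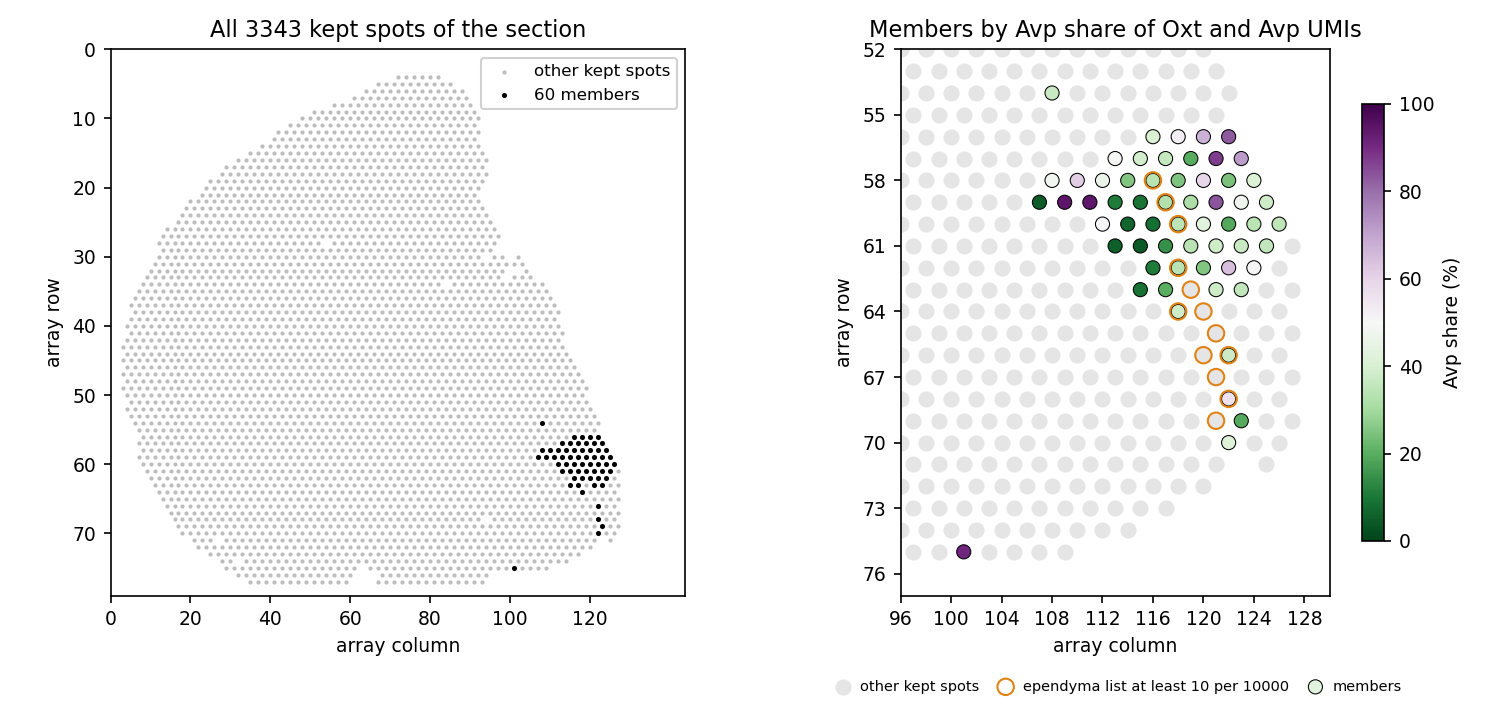
Left, the 3343 kept spots of HF replicate 2 by array row and column, with the 60 members in black. Right, the region of the members coloured by Avp share of their Oxt and Avp UMIs, with spots whose ependyma list reached 10 per 10000 ringed; the 54 spots of the large field flank the ringed line, and 1 member with a share of 91.0% stands apart at row 75.

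Levels of both hormones were then summed by distance from the ependyma line, in array rows 58 to 63 with 6 spots at each distance. Oxt was highest 2 spots to the left of the line, with 377.0 per 10000 (interval 363.7 to 390.7), and 1 spot to the right, with 312.1 (302.3 to 322.1). Avp was highest 3 spots to the left, with 180.3 (170.5 to 190.4), and 2 spots to the right, with 209.0 (201.8 to 216.4). The places of the Avp maxima rest on array row 59, in which 1 spot held 1134 of the 1282 Avp UMIs at 3 spots to the left and another held 1170 of the 3156 at 2 spots to the right. Without row 59, a choice made after seeing the data, Avp was highest where Oxt was, at 2 spots to the left (36.1, against 28.8 at 3 spots) and 1 spot to the right (174.0, against 160.8 at 2 spots). Without row 62 the Avp maximum on the right was also at 1 spot, with 184.8. Within single rows, Avp was highest farther from the line than Oxt in 3 of 6 rows on either side, so no offset between the hormones was common to the rows. The maxima of summed Oxt stood at 2 spots to the left and 1 to the right with each of the 6 rows left out in turn. Within single rows, the left Oxt maximum stood at 1 spot in rows 58 and 62, and the right one at 2 spots in row 60. Oxt was at 89.3 at 5 spots to the left, where 1 member held 452 of the 517 Oxt UMIs.

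**Figure D2:**
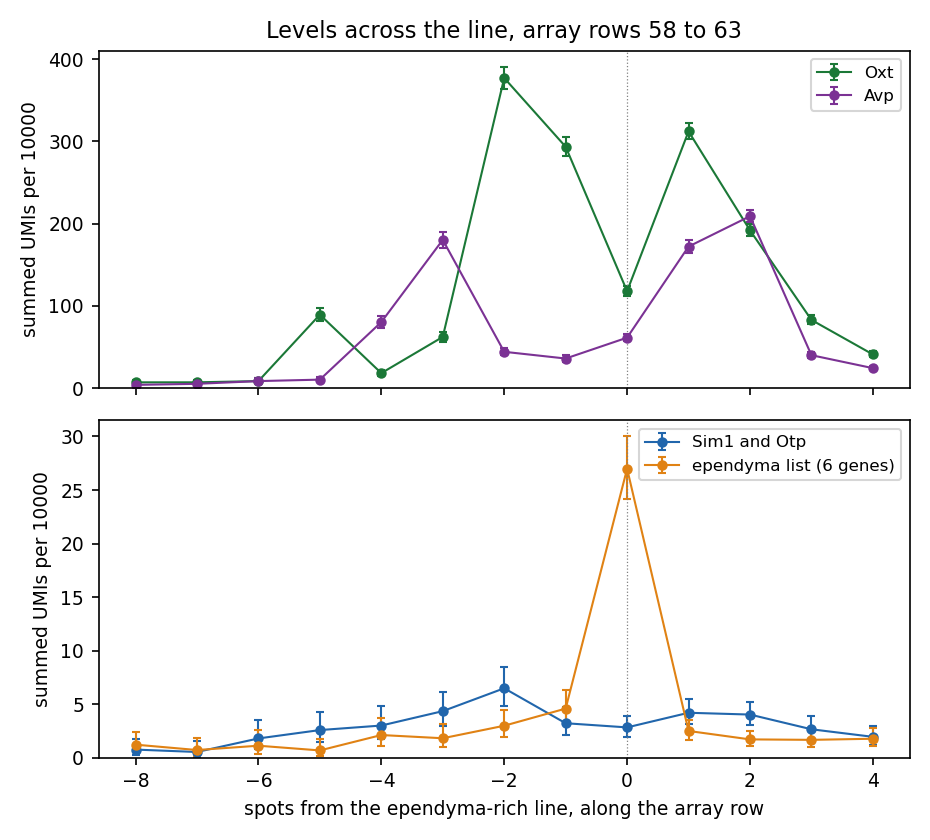
Summed UMIs per 10000 by distance from the ependyma-rich line along array rows 58 to 63, 6 spots at each distance, negative to the left, with exact 95% intervals (counting error). Oxt is highest at -2 and 1 spots, while the Avp maxima at -3 and 2 rest on row 59. The ependyma list, by which the line was chosen, is highest at 0 (27.0) by that choice.

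Row 59 shows the change from spot to spot. From column 107 to column 115, the Oxt UMIs of adjacent members were 452, 21, 70, 1046 and 842, and the Avp UMIs were 24, 374, 1134, 128 and 84. On the other side of the line, column 119 had 744 Oxt and 343 Avp UMIs, column 121 had 224 and 1170, and column 123 had 110 and 99. Some adjacent spots of row 59 thus held opposite mixtures of the hormones. This was not so in all rows. In row 60, the adjacent members at columns 114 and 116 had 993 and 716 Oxt UMIs and 70 and 65 of Avp.

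The Avp share of the Oxt and Avp UMIs ran from 4.63% to 94.7% over the members, with a median of 37.0%. Probe pairs for the genes may differ in yield, so the share orders spots and is not a ratio of transcripts. Array rows 56 and 57 held no line spot, and their members were assigned to no side. Sides were compared in the large field alone. Its 19 members to the left of the line had a pooled share of 27.2% and a median of 14.8%, and its 20 to the right had 42.7% and 37.4%. Ranges overlapped, at 4.63% to 94.7% on the left and 19.0% to 83.9% on the right. The sides differed most in rows 60 to 62, where the share was 10.5% on the left (exact binomial interval 9.55 to 11.5) and 38.3% on the right (37.3 to 39.4), over all spots within 5 of the line in those rows. In rows 58 and 59 the shares were 42.0% and 49.8%. Without row 59 the pooled shares of the members of the large field were 13.8% on the left (14 members) and 38.5% on the right (16 members). The medians were 17.5% and 36.3%.

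Over all 3343 kept spots, the logs of the Oxt and Avp levels correlated with Pearson's r = 0.712, a description over spots that share neighbours and depth. Within the 60 members r was 0.0648 and within the other spots 0.607. The rule, which picks on the sum of these logs, itself lowers the value among members.

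**Figure D3:**
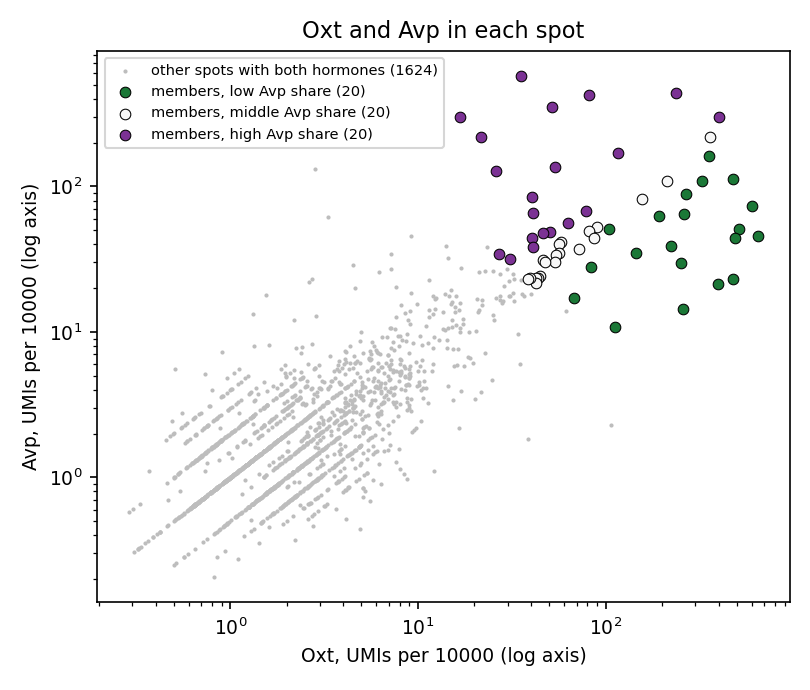
Avp against Oxt, both as UMIs per 10000 on log axes, with 1 point for each of the 60 members, coloured by rank of Avp share in groups of 20, and for each of 1624 other spots that held both genes. Over the other 3283 spots r was 0.607, and among the members 0.0648.

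Outside the members, both transcripts were lower with distance but did not reach 0. Spots 1 spacing away had 19.4 Oxt UMIs per 10000 (18.4 to 20.4) and 18.9 of Avp (18.0 to 19.8), and those 3 spacings away had 8.36 and 6.07. At 11 to 20 spacings the levels were 2.42 and 1.87, and at 51 to 61 spacings, on the far side of the section, 0.588 and 0.418. At least 1 UMI of Oxt was found in 49.7% of the 1061 spots that lay 41 or more spacings away, and 1 of Avp in 37.5%. With every spot thinned to 5000 UMIs these shares were 27.6% and 19.9%. A share of spots with a UMI was therefore not read as a share of spots with expressing cells, and the source of these UMIs was not tested. No spot at that distance had more than 7 Oxt or 5 Avp UMIs, while every member had at least 21 and 9. In the other sections, 25 to 76 spots held any Oxt UMI and 81 to 163 any Avp UMI. How far transcripts or probes had moved from the members was not tested.

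**Figure D4:**
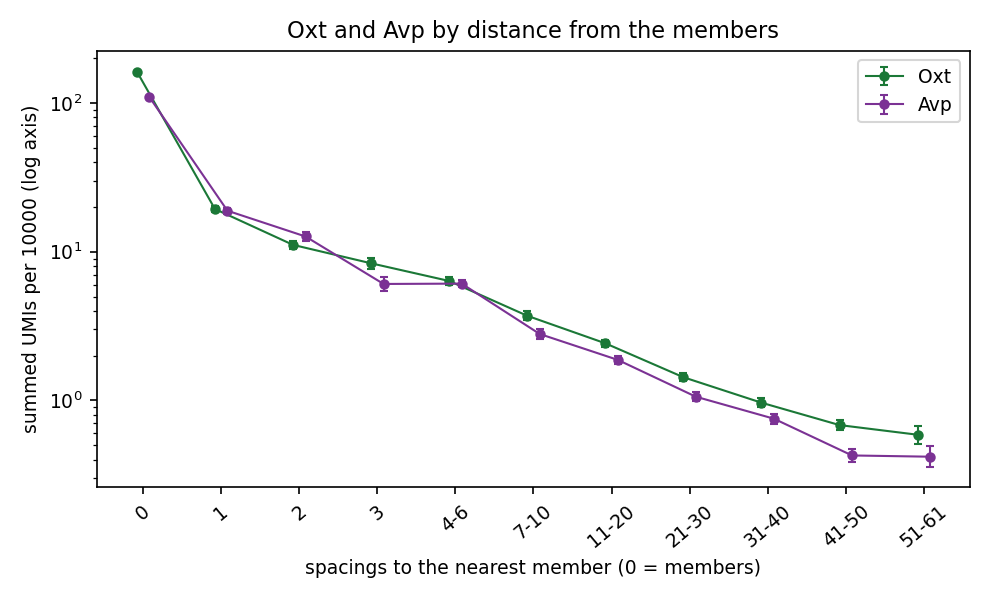
Summed Oxt and Avp UMIs per 10000 (log axis) by distance to the nearest member in spot spacings, with exact 95% intervals (counting error). Oxt goes from 162.9 in the members to 0.588 at 51 to 61 spacings and Avp from 109.8 to 0.418.

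Transcription factors that specify these neurons were among the genes with the highest folds. A gene was compared when it had at least 30 UMIs in the members, or in the other spots scaled to the members' total. Of the 8030 genes compared with the other spots, 315 (3.92%) were at least 2-fold higher and 333 (4.15%) at least 2-fold lower, with a median fold of 1.03. Among the 6 listed specification factors 4 could be compared, and 3 of these were at least 2-fold higher, with a median of 10.2. Sim1, needed for the formation of the paraventricular and supraoptic neurons, had 85 UMIs in the members and 187 in the other spots, a fold of 17.4 (13.3 to 22.6). Otp, a homeobox factor of the same neurons, was 15.9-fold higher (13.8 to 18.4). Pou3f2, also called Brn2 and required for magnocellular fates, was 4.47-fold higher (3.75 to 5.29). Arnt2, the dimer partner of Sim1, was 1.36-fold higher (1.20 to 1.54).

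Sim1 UMIs were found in 36 of 60 members, in 4.29% of the other spots and in 0.848% of those 41 or more spacings away. Those of Otp were found in 53 members, in 12.4% of the others and in 2.36% of the distant spots. Median depths were 16887 UMIs in the members and 11780 in the others, and with all spots thinned to 5000 UMIs the shares were 28.3% against 1.77% for Sim1 and 73.3% against 6.43% for Otp. Per spot, Sim1 ranged from 0 to 7 UMIs in the members (median 1) and Otp from 0 to 13 (median 4). Neither was seen in 4 members.

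The same factors were higher than in the surround and in other hypothalamic spots. Against the surround, 65 of 7983 genes (0.814%) were at least 2-fold higher and 17 (0.213%) at least 2-fold lower. Sim1 was 5.77-fold higher than there (3.76 to 9.06, and 3.62-fold higher than in the 52 spots 1 spacing away), Pou3f2 4.13-fold (3.11 to 5.52), Otp 2.87-fold (2.38 to 3.47) and Arnt2 1.22-fold. Against the 300 other spots with the highest score of 6 broad hypothalamic genes, 103 of 7949 genes (1.3%) were at least 2-fold higher and 27 (0.34%) at least 2-fold lower, and Pou3f2 was 4.73-fold higher, Sim1 4.26-fold and Otp 2.61-fold. Of the broad genes themselves, all 6 were at least 2-fold higher than in the other spots and none than in the surround. There 5 of the 6 had a ratio above 1, with a median of 1.08 beside 0.974 over all genes compared. Dlk1, an imprinted membrane protein of hypothalamic neurons, was 8.46-fold higher than in the other spots and had a ratio of 0.952 (0.828 to 1.09) to the surround, and Baiap3, a regulator of dense-core vesicle traffic, was 6.70-fold and 1.27-fold higher. Per spot, however, the median of Dlk1 was 2.43 per 10000 in the members and 1.31 in the surround, where a single spot held up to 58 UMIs.

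**Figure D5:**
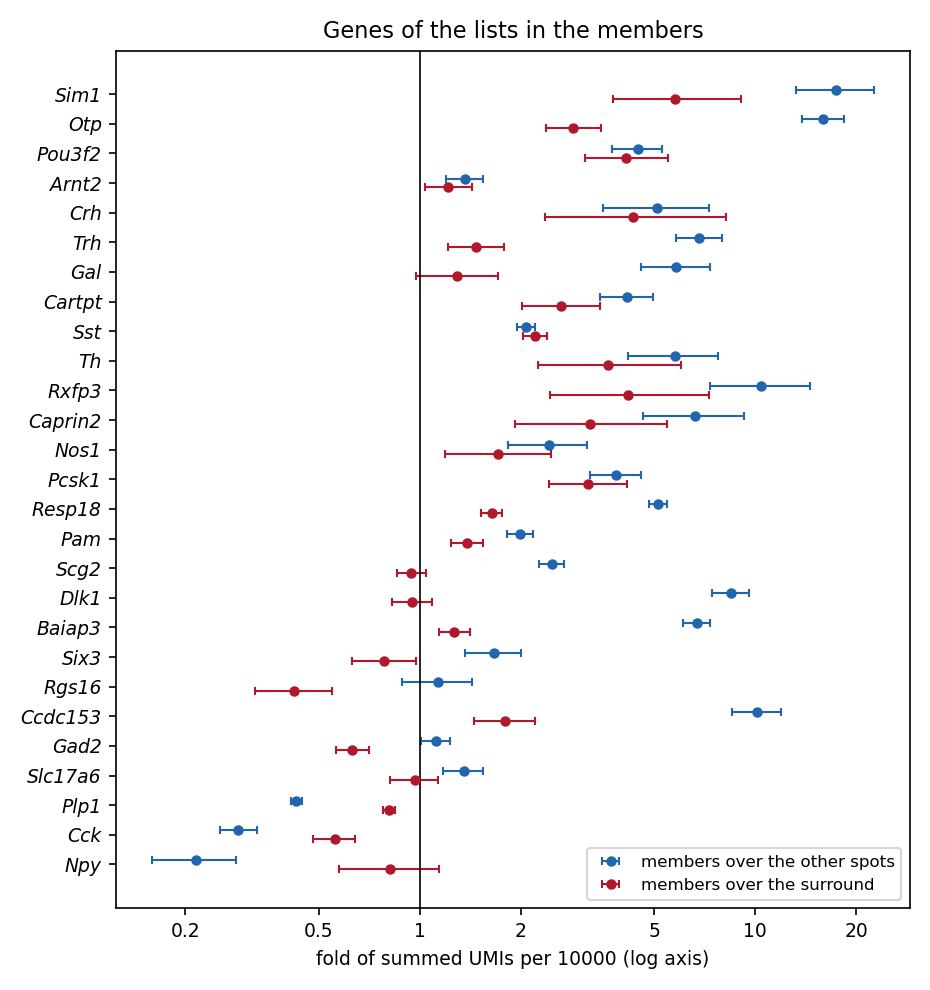
Folds of summed UMIs per 10000 in the 60 members over the other 3283 spots (blue) and over the 153 spots of the surround (red), on a log axis with exact 95% intervals (counting error). Sim1, Otp, Pou3f2, Crh, Rxfp3 and Pcsk1 lie above 2 in both comparisons, Dlk1 and Scg2 above 2 against the other spots alone.

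Among 17 other peptides listed for the paraventricular and supraoptic nuclei, 10 could be compared with the other spots. Of these 5 were at least 2-fold higher and 2 at least 2-fold lower, with a median of 1.79. Over all genes compared, 3.92% were at least 2-fold higher and 4.15% at least 2-fold lower. Trh, thyrotropin-releasing hormone, was 6.80-fold higher (5.80 to 7.94), Gal (galanin) 5.82-fold (4.57 to 7.33), Crh, the hormone that drives release of corticotropin, 5.12-fold (3.51 to 7.26), Cartpt 4.15-fold (3.44 to 4.97) and Sst (somatostatin) 2.07-fold (1.95 to 2.20). Cartpt encodes a peptide of feeding and stress circuits. Cck and Npy, abundant in cortical neurons, were at 0.288 and 0.215 of the level elsewhere.

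Against the surround the peptides came apart. Crh was 4.31-fold higher there (2.36 to 8.19), Cartpt 2.64-fold (2.02 to 3.45) and Sst 2.21-fold (2.03 to 2.40), whereas Trh was 1.47-fold higher (1.22 to 1.78) and Gal 1.30-fold (0.974 to 1.72). Crh rests on 36 UMIs in 22 of the members, and at most 6 in 1 spot. Th, the enzyme that limits dopamine synthesis, was 5.76-fold higher than in the other spots (4.19 to 7.77) and 3.64-fold higher than in the surround (2.25 to 6.00, and 2.26-fold at 1 spacing). Pdyn, made in vasopressin neurons, had 24 UMIs in 19 members, and Ghrh had 14, under the 30 needed for a comparison.

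Of 13 listed regulators and membrane proteins of magnocellular neurons, 9 could be compared with the other spots. Among them 6 were at least 2-fold higher, beside 3.92% of all genes compared, and none was lower, with a median of 2.43. Rxfp3, the receptor of relaxin-3, was 10.4-fold higher (7.33 to 14.6), and Caprin2, an RNA-binding protein that acts on vasopressin messenger RNA, 6.64-fold (4.65 to 9.28). Both also exceeded the surround, by 4.17-fold (2.45 to 7.28) and 3.21-fold (1.92 to 5.47). Nos1, neuronal nitric oxide synthase, was 2.43-fold higher than elsewhere and 1.72-fold higher than in the surround (1.19 to 2.46). Calb2 (calretinin) was 2.15-fold higher than in the other spots and lower than in the surround, at a ratio of 0.782 (0.716 to 0.853). Against the surround 2 of the 9 were at least 2-fold higher, with a median of 1.28, beside 0.814% of all genes compared there. The sum of the list was at 16.8 per 10000 in the members, 7.63 in the other spots and 16.7 in the surround. Agtr1a, the angiotensin receptor, had 22 UMIs in 15 members and 43 UMIs in all other spots together, which is under the minimum for a comparison.

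Of 20 genes for peptide processing and dense-core vesicles, 19 could be compared. Among them 4 were at least 2-fold higher than in the other spots, beside 3.92% of all genes compared. None was 2-fold lower, and the median was 1.27. The sum of the list was at 104.3 per 10000 in the members, 71.8 in the other spots and 92.1 in the surround. Resp18, a protein of endocrine secretory granules, was 5.13-fold higher (4.84 to 5.45), Pcsk1, a convertase that cleaves prohormones, 3.84-fold (3.22 to 4.55), Scg2 (secretogranin II) 2.48-fold and Nucb2, the precursor of nesfatin, 2.09-fold. Pam, which amidates the carboxyl end of both hormones, was 1.996-fold higher (1.83 to 2.18). Against the surround 1 of the 19, Pcsk1, was at least 2-fold higher, at 3.17-fold (2.44 to 4.15), beside 0.814% of all genes compared there. Pcsk2, the other neuroendocrine convertase, was at 0.712 of the other spots and 0.763 of the surround.

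Few UMIs of the hormones' receptors were counted. Oxtr had 7 UMIs in 7 of the 60 members (11.7%), against 11.2% of the other spots, and Avpr1a, Avpr1b and Avpr2 had 0. With 1083596 UMIs in the members, a count of 0 allows a level of up to 0.0277 per 10000 (3 counts). Lnpep, the membrane peptidase that cleaves oxytocin, had a ratio of 0.936 to the other spots (0.737 to 1.17).

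Genes of GABA neurons were lower in the members than in their surround. Gad2, which makes GABA, was at 0.630 of the surround (0.562 to 0.706) and Slc32a1, the vesicular GABA transporter, at 0.571 (0.385 to 0.827), while Slc17a6, the vesicular glutamate transporter of hypothalamic neurons, was at 0.965 (0.818 to 1.14). None of the 5 transmitter genes that could be compared was above 1 there, with a median ratio of 0.722 beside 0.974 over all genes compared. Genes known from the suprachiasmatic nucleus, which also makes vasopressin, were lower than in the surround. All 5 that could be compared were below 1, with a median of 0.523 and Rgs16 at 0.423 (0.323 to 0.547). Vip, a defining peptide of that nucleus, had 7 UMIs in all members.

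Markers of some other cells differed in the members as well. All 7 oligodendrocyte genes were lower than in the other spots, from 0.364 for Mobp to 0.501 for Cnp, and from 0.776 to 0.849 of the surround. Against the other spots, the medians of the astrocyte, microglia and endothelium lists were 1.04, 0.910 and 1.18, beside 1.03 over all genes compared. Of these lists 1 astrocyte gene was at least 2-fold higher and no gene at least 2-fold lower. Of 7 pituitary genes other than Tshb, which had 1 UMI, none had a UMI in the members. Pmch and Hcrt, which mark neurons of the lateral hypothalamus, had 2 and 0. Of the 60 members, 40 had an ependyma level above 1.49 per 10000, the 90th percentile of the other spots. In the 20 members at or below that limit, Sim1 was 19.8-fold higher than in the other spots (13.4 to 28.4), Otp 17.6-fold, Pou3f2 5.29-fold and Trh 7.47-fold higher, at least as high as in all 60. Sst was 1.29-fold higher there (1.13 to 1.46) and 1.37-fold higher than in the surround, against 2.07-fold and 2.21-fold in all members.

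Among genes with at least 60 UMIs, the 15 highest folds against the other spots, Oxt and Avp aside, began with Sim1 and Otp and included Dlk1 and Rarres2 (8.16-fold). Rxfp3, which had fewer UMIs, lay among them in size. Tmem212, Ccdc153, Ccdc162, Ak7, Cfap65, Rsph1 and Fam183b, from 10.1-fold to 6.94-fold, are genes of motile cilia or of ependyma. Scn9a, a sodium channel, was 9.26-fold higher (7.15 to 11.9), Gpx3, a secreted glutathione peroxidase, 9.17-fold (8.01 to 10.5), Calcr, the calcitonin receptor, 9.05-fold (6.95 to 11.7) and Irs4, an insulin receptor substrate, 7.58-fold (5.84 to 9.74). In the members with few ependyma UMIs, Scn9a was 10.1-fold and Gpx3 9.25-fold higher, while Calcr had 28 UMIs, under the minimum for a comparison. The lowest ratios were those of forebrain genes, with Kcnv1 at 0.112, Rtn4rl2 at 0.152, Ppp1r1b at 0.157, Itpka at 0.164 and Lamp5 at 0.183.

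Against the surround, and again among genes with at least 60 UMIs, the highest folds after Sim1, Pou3f2, Pcsk1 and Otp were those of Tns1, at 2.82-fold (2.24 to 3.56), then Cartpt, Parm1 at 2.58-fold (1.85 to 3.59), Cntn6, an axonal adhesion molecule, at 2.39-fold (1.76 to 3.25) and Rsph1. Gpx3 (2.27-fold), Sst, Ccdc162, Vim, Trpc5 and 2610001J05Rik completed the 15, down to 2.00-fold. The lowest, from 0.405 to 0.511, were Hs6st2, Rgs16, Cbln1, Plch2 and Unc5a. Over all 3343 spots, the 10 genes of 12577 whose log level was most like the score were Otp (Pearson's r = 0.542), Baiap3 (0.541), Sparc (0.525), Resp18, Calb2, Nap1l5, Agt, Dlk1, Zcchc12 and Itih3 (0.490). These correlations describe spots that share neighbours, depth and region, and several of the 10 genes were as high in the surround.

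The members were ordered by Avp share. The 20 with the highest share (43.0% to 94.7%, high-share) and the 20 with the lowest (4.63% to 32.7%, low-share) were compared for other genes. The high-share set also held members with more Oxt than Avp UMIs, such as the top-ranked spot with 985 and 742. Of 3689 genes compared, 25 (0.678%, Avp among them) were at least 2-fold higher and 21 (0.569%, Oxt among them) at least 2-fold lower in the high-share spots. Otp had 3.24 per 10000 in the low-share spots (2.67 to 3.90) and 2.72 in the high-share ones (2.22 to 3.31), a ratio of 0.840 (0.636 to 1.11). For Sim1 the levels were 0.701 and 1.18, a ratio of 1.68 (0.997 to 2.88), and for Pou3f2 1.34 and 1.60. Trh, Cartpt, Pcsk1 and Resp18 had ratios from 0.846 to 1.01, and their intervals all held 1.

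Sst differed with the share. It had 14.4 per 10000 in the low-share spots (13.2 to 15.8), 11.9 in the middle 20 and 4.94 in the high-share spots (4.26 to 5.71). The ratio of the last to the first was 0.342 (0.288 to 0.406). Per spot Sst ranged from 2.39 to 62.9 in the low-share members (median 10.9) and from 1.81 to 15.2 in the high-share ones (median 3.86). The ranges thus overlapped. Without the highest spot of each set the pooled levels were 12.0 and 4.31. Nos1 had 0.876 per 10000 in the low-share spots (0.591 to 1.25) and 0.374 in the high-share ones (0.204 to 0.627). Ependyma UMIs were 196 in the low-share, 268 in the middle and 134 in the high-share members. Cilia genes such as Rsph1 (0.383) and Ccdc162 (0.287) were lower with a high share too. The part of nearness to the ependyma line in the values of Sst was not tested.

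Members outside the large field differed from it in other genes. The 3 spots of the small field had 598 Oxt and 290 Avp UMIs in all, but 2 of Sim1 and 3 of Otp, at 0.381 Otp per 10000 against 2.82 in the large field. Of the suprachiasmatic list, Six3 was at 2.80 per 10000 against 0.895, Rgs16 at 2.16 against 0.516 and Six6, on 6 and 4 UMIs, at 0.763 against 0.0421, and their intervals did not overlap. The intervals of Rorb, Syt10 and Zfhx3 did, Lhx1 and Vipr2 had 2 UMIs and 1 UMI in the small field, and the peptides Vip, Grp and Prok2 had 0 there, against 7, 11 and 0 in the large field. Gad2 was at 7.37 against 3.37. The spot at row 75 had 485 Avp and 48 Oxt UMIs, 3 UMIs each of Sim1, Otp and Pou3f2, 13 of Gal and 7 of Th, and lay at the edge of the tissue. The lone spot at row 54 had 58 Oxt and 34 Avp UMIs and none of Sim1, Otp or Pou3f2. It was 1 of 2 members without a UMI of those 3 factors. No nucleus was assigned, since histology was not used here.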

How the data were processed

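The authors mapped the reads of the probes with Space Ranger 2.0.0 to the mouse build mm10 and deposited UMI counts, which are whole numbers without normalization, for 19465 features and every spot over tissue. They also deposited Moran's I per feature, a score of how alike neighbouring spots are, in a table whose count column equals the summed counts (0 mismatches). Its p-values were not used. Gene positions come from GENCODE vM21, and 19451 features matched.

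Of 3350 spots in HF replicate 2, 7 were removed. The section had 42507273 UMIs, with a median of 11831 per kept spot. Barcodes are array positions, of which 2474 recur in all 4 sections, so shared barcodes are not shared material. Distances are steps on the hexagonal array. A fold is the ratio of summed UMIs per 10000 in 2 pools of spots, with an exact conditional Poisson interval for counting error only, and needs 30 UMIs in the larger pool after scaling. The ependyma line holds, in each array row near the members, the spot with the highest ependyma level and at least 10 UMIs of that list. Left and right are lower and higher array columns. Thinning to 5000 UMIs left out 125 of 3283 other spots, which were shallower.

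The members and the 23 gene lists (193 genes, 190 in the files) were chosen with earlier results of these data known. Named genes are those of the lists, the 15 highest and 5 lowest folds against the other spots and against the surround with at least 60 UMIs, and the 10 genes most correlated with the score. Y-linked genes, Xist and mitochondrial genes were left out. Alternatives changed the filter, the number of members, the score, the totals, the depth, the comparator spots and the minimum count.

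The folds were tested on simulated data for the comparison with the other spots. Counts were drawn with counting error only, the error that the intervals cover, and the planted changes exceeded the 2-fold limit. Among 7617 genes, 100 of 100 with a raised level and 98 of 100 with a lowered level were recovered. Of the unchanged genes 1 was called, and 95.3% of intervals held the true fold. Such coverage was built into the draw, and the spread between spots was not tested. Tools were Python 3.11.15, numpy 2.4.6, scipy 1.17.1, pandas 2.3.3 and matplotlib 3.10.9.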

Additional observations from a re-analysis of the deposited data

How the results depend on the processing

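All values come from 1 section of 1 animal, so no spread between animals is known. Of the counts of genes at least 2-fold higher and lower than in the other spots (315 and 333), thinning to 5000 UMIs gave 115 and 162, a minimum of 10 UMIs gave 692 and 501, and one of 100 UMIs gave 99 and 158, with fewer or more genes compared. Without the 40 ependyma-rich members, a setting chosen after seeing the data, 139 and 199 genes were called against the other spots and 15 instead of 65 were higher than in the surround. The 20 members left were kept for few UMIs of the ependyma list, so lower folds of its genes were fixed by that choice. Of the genes named next, Ccdc162, Rsph1 and Syt10 are not in that list. Syt10, of the suprachiasmatic list, was 2.19-fold higher in all 60 members than in the other spots. In the 20 members left, the folds of Tmem212 (0.962), Ccdc162 (0.960), Syt10 (0.962), Foxj1 (0.657) and Dynlrb2 (0.921) against the other spots were below 1. So were those of Ccdc162 (0.241), Rsph1 (0.995), Enkur (0.763) and Dynlrb2 (0.238) against the surround. They rest on 2 to 16 UMIs each. Setting the surround at 1 spacing gave 55 lower genes instead of 17, and 4 to 6 spacings gave 171 higher and 56 lower. With 600 hypothalamic spots 57 genes were lower instead of 27. With 30 members there were 3 connected groups instead of 5. Spearman correlation kept 6 of the 10 genes most like the score. Among folds of named genes, 47 left their interval with 120 members, 35 with 30 members, 35 after thinning, 52 with the surround at 4 to 6 spacings and 73 without the ependyma-rich members, where 9 more crossed 1. Under the alternatives other than the last, none that was at least 2-fold higher or lower crossed 1. Without array row 59, added after seeing the data, the highest Avp level stood at -2 and 1 spots from the line instead of -3 and 2, and without row 62 at 1 on the right. Beyond the number of genes or spots entering, the cause was not tested. Under the alternatives run, the folds of Sim1 against the other spots ranged from 11.6 to 22.8, of Otp from 12.3 to 21.4 and of Pou3f2 from 3.03 to 5.29. Of 60 members, 55 were kept with the summed level as score, 54 with Oxt alone and 49 with Avp alone. No paired analysis was possible because the results come from 1 section and no test.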
